A study of Homo sapiens with 12 samples.

Results

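Transcription factors of the renal tubular lineage were examined on 12 oligonucleotide microarrays of human proximal tubular cells (HPTC). The 8 genes were HNF4A, HNF4G, PAX2, PAX8, LHX1, WT1, GATA3 and POU3F3, out of 25992 gene names on the array, and they were chosen by name. They are represented by 11 of the 34127 probes for human transcripts, 3 for HNF4G, a pair for PAX2 and 1 for each of the others. HK-2 is a line of human proximal tubular cells that carries papillomavirus genes, and RPTEC/TERT1 is a line of renal proximal tubular epithelial cells kept dividing by telomerase. Each line is an established culture and not a fresh tubule. Cells of all groups were starved for 24 h and then kept for 24 h with IL-1β at 10 ng/mL, with empagliflozin (Empa) at 500 nM or without ligand (control). IL-1β is a cytokine that drives inflammation, and Empa blocks the sodium-glucose cotransporter SGLT2. No array carries cells that received both. The 6 groups of line and treatment hold 2 biological replicates each. The arrays lie on 4 slides, and each slide holds the control, IL-1β and Empa array of a labelled line and replicate number. The slides are called here HK2 slide 1, HK2 slide 2, RPTEC slide 1 and RPTEC slide 2.

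These genes encode DNA-binding proteins that build and keep the epithelium of the nephron. PAX2, PAX8, LHX1 and GATA3 act early, in the nephric duct. WT1 is needed in the mesenchyme that gives rise to nephrons and later marks podocytes. HNF4A and its paralog HNF4G are nuclear receptors that activate transport and metabolic genes of the proximal tubule. POU3F3 (BRN1) acts in the loop of Henle and the distal tubule. PAX8 remains in most tubular segments of the adult kidney.

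The line labels of the slides were checked first, because every baseline comparison rests on them. Across the 15324 probes measured on every array, the control array of HK2 slide 1 correlated with r = 0.984 with that of RPTEC slide 2 and with r = 0.880 with that of HK2 slide 2. The control array of RPTEC slide 1 correlated with r = 0.973 with that of HK2 slide 2 and with r = 0.875 with that of RPTEC slide 2. The slides of a labelled line were thus less alike than slides of different labels. The sample titles name both lines, while the source field of all 12 samples names HK-2. The values are therefore given slide by slide under the labels as deposited, and treated arrays are set against the control array of their own slide, which does not depend on the line label.

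Levels are log2 values relative to the 75th percentile of the signal on the same array, so that 0 is a bright probe and -8.71 is the lowest value a probe can take, at the floor of 1 signal unit. A probe counted as measured where the scanner software marked it as well above background. Levels of different probes are not comparable with each other, and no probe of these genes was saturated on any array. In such bulk samples, fewer cells of a type and less RNA per cell cannot be told apart.

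Probe sequences are shown for 3 genes, to show what was read: HNF4A, whose probe gave no signal above background, POU3F3, which is weak, and the second PAX2 probe, which differs from the first. Each is given 5′ to 3′ as designed, and no base is in capitals.
HNF4A: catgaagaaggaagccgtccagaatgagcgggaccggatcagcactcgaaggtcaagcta
PAX2, second probe: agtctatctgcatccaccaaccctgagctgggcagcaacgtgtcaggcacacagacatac
POU3F3: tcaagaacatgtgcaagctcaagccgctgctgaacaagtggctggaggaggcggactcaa
On hg19, the HNF4A probe starts at position 43036102 and ends at position 43042379 of chromosome 20, a span of 6278 bases for 60 bases of probe, so it crosses an intron. The PAX2 probe lies at chr10:102568921-102568980 and the POU3F3 probe at chr2:105473077-105473136. All of them lie on the plus strand and have at least 1 reading frame without a stop codon.

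PAX2 was the member with the widest range between slides. Its first probe (chr10:102589603-102589662, listed for NM_003988) gave control levels of 3.29 on HK2 slide 1 and 3.31 on RPTEC slide 2. On RPTEC slide 1 and HK2 slide 2 the control arrays were at the floor of -8.71. The probe was well above background on all 6 arrays of HK2 slide 1 and RPTEC slide 2 and on none of the other 6 arrays. Measured against the dimmest signal that still counted as well above background, the control level of HK2 slide 1 was at least 690-fold higher than that of RPTEC slide 1 and at least 502-fold higher than that of HK2 slide 2. The control level of RPTEC slide 2 was at least 700-fold higher than that of RPTEC slide 1 and at least 510-fold higher than that of HK2 slide 2. A single array stands behind each of these values, so they have no test. The replicates of each labelled line lie on opposite sides, and the spread within a label covers the whole range.

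The second PAX2 probe, listed for NM_003990 and printed above, did not show this contrast. Its control levels were -4.92 on HK2 slide 1, -5.40 on RPTEC slide 2, -6.69 on RPTEC slide 1 and -5.51 on HK2 slide 2. It was well above background on 1 of 12 arrays, the IL-1β array of HK2 slide 1. The probes of PAX2 therefore disagree, and the PAX2 values below are those of the first probe.

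POU3F3 was weak and followed the slides in the same way as PAX2. Its control levels were -3.96 on HK2 slide 1 and -3.44 on RPTEC slide 2, against -6.63 on RPTEC slide 1 and -8.71 on HK2 slide 2. It was well above background on the same 6 arrays as PAX2 and on none of the others. The control level of RPTEC slide 2 was at least 6.49-fold higher than that of RPTEC slide 1 and at least 4.72-fold higher than that of HK2 slide 2. The highest background-subtracted signal on any array was 50.2 signal units for this probe and 5900 signal units for the first PAX2 probe. These values describe the brightness of the probes and do not compare the levels of the genes.

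A pattern over all 12 arrays like that of PAX2 and POU3F3 was shown by 201 of the 25992 genes, and the opposite pattern, with signal on all 6 arrays of RPTEC slide 1 and HK2 slide 2 alone, by 354 genes. On the control arrays, 1.9% of genes were measured on HK2 slide 1 and RPTEC slide 2 and not on the other slides. The slides with PAX2 signal were scanned on different days, and each scan day held a slide with signal and a slide without.

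**Figure D1:**
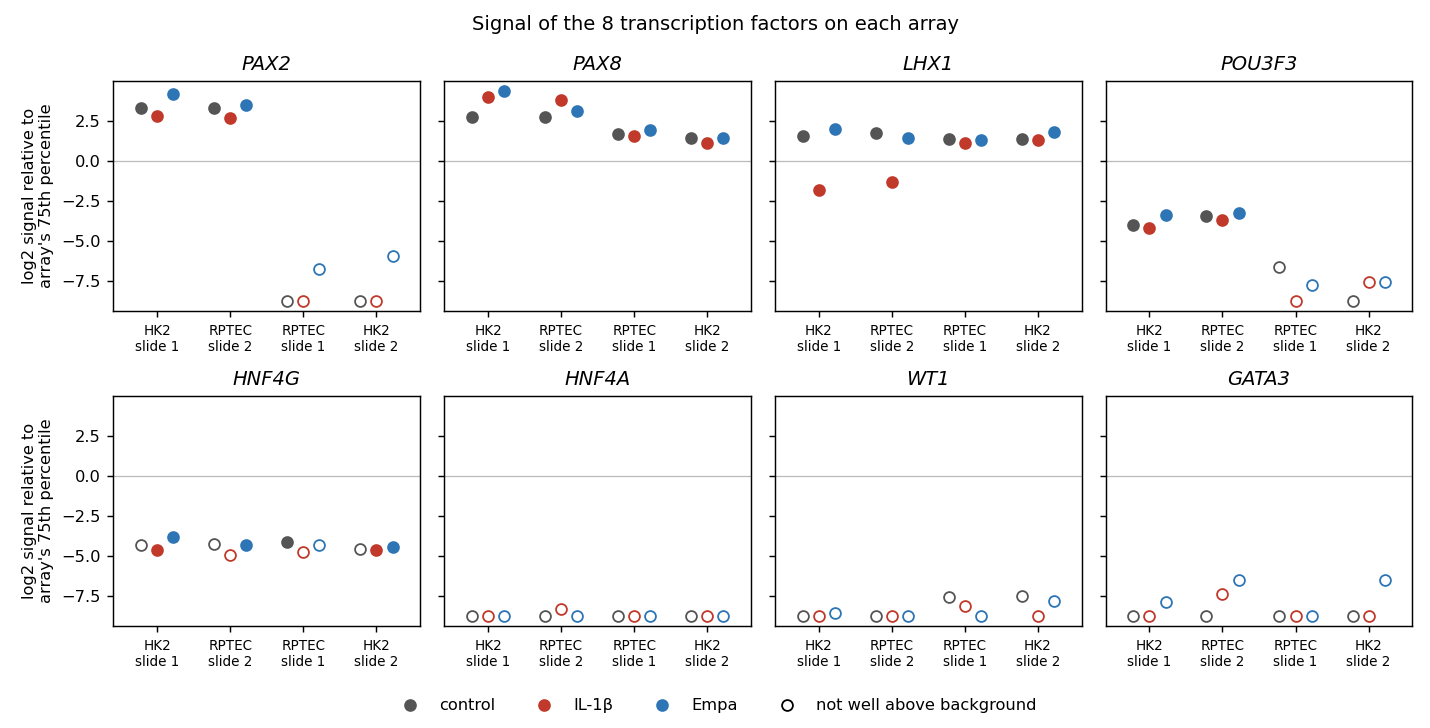
Log2 signal of the 8 transcription factors (y axis, relative to the 75th percentile of the array) on the 4 slides (x axis), 1 point per array and the brightest probe per gene. Filled points were well above background and open points were not. PAX2 and POU3F3 are filled on HK2 slide 1 and RPTEC slide 2, while the IL-1β arrays of those slides hold the lowest LHX1 levels, -1.83 and -1.29.

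PAX8 and LHX1 were measured on all 12 arrays. PAX8, the paired-box factor that remains in adult tubules, had control levels of 2.76 on HK2 slide 1, 2.72 on RPTEC slide 2, 1.72 on RPTEC slide 1 and 1.46 on HK2 slide 2. The control array of HK2 slide 1 was 2.06-fold higher than that of RPTEC slide 1 and 2.48-fold higher than that of HK2 slide 2. The control levels of HK2 slide 1 and RPTEC slide 2 lay within 1.03-fold of each other. LHX1, a LIM homeobox factor of the nephric duct and early nephron, had control levels of 1.59, 1.73, 1.40 and 1.38 on the same slides in the same order, a range of 0.35. A range of at least 2-fold between control arrays was found in 47.1% of the 12606 genes measured on all 12 arrays, among them PAX8, and the LHX1 range was below it.

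HNF4G was close to the limit of detection. Its brightest probe was well above background on 6 of 12 arrays, with levels between -4.96 and -3.80, and among the controls on RPTEC slide 1 alone, at -4.15. The other control arrays, at -4.53 to -4.24, lay within 1.3-fold of it. The remaining HNF4G probes were well above background on 1 and on 0 arrays.

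HNF4A, WT1 and GATA3 were not well above background on any of the 12 arrays. The HNF4A probe gave background-subtracted signals between -3.01 and 1.21 signal units. WT1, which is spotted 10 times on each array, gave averages between -0.143 and 3.25 signal units, and GATA3 gave between -2.50 and 8.20. This sets the limit of these probes and does not show that the genes were silent. For comparison, 6268 of 25992 genes had no probe well above background on any array. The antisense transcripts GATA3-AS1 and PAX8-AS1, matched by their own probes, were also not well above background on any array.

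The genes that HNF4A is known to activate were looked at next. Of 32 genes on the list, 16 were not well above background on any array, among them the gluconeogenic genes PCK1, G6PC and FBP1, the apolipoprotein gene APOC3 and the organic anion transporter SLC22A6. The control arrays had 12 of the 32 genes above background on HK2 slide 1, 9 on RPTEC slide 2, 9 on RPTEC slide 1 and 10 on HK2 slide 2. CYP27A1, which encodes sterol 27-hydroxylase, was at 4.42 and 4.21 on HK2 slide 1 and RPTEC slide 2 and at -2.23 and -2.87 on RPTEC slide 1 and HK2 slide 2. The opposite was seen for SLC2A2 (GLUT2), at the floor on HK2 slide 1 and RPTEC slide 2 and at -1.26 and -1.19 on RPTEC slide 1 and HK2 slide 2. SERPINA1, which encodes a protease inhibitor, was at 1.29 and 1.44 on HK2 slide 1 and RPTEC slide 2 and at 3.29 and 3.77 on the others. The target genes thus had no common order of slides. These genes were named after their values were seen.

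Among 44 other kidney transcription factors, the control arrays had 26 measured on HK2 slide 1, 24 on RPTEC slide 2, 20 on RPTEC slide 1 and 18 on HK2 slide 2, and 9 were measured on no array. TFAP2B, a factor of the distal nephron, was at 2.28 and 2.66 on HK2 slide 1 and RPTEC slide 2 and not well above background on the others. The opposite was seen for SOX11, at -2.01 on RPTEC slide 1 and -2.47 on HK2 slide 2 and at the floor on the other control arrays. These examples were also named after their values were seen. Of the POU paralogs, POU3F2 was measured on no array.

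Markers of the proximal tubule and of other cell types were counted on the control arrays, to check the labelled cell type. Of 23 proximal tubule markers, 13 were measured on HK2 slide 1, 12 on RPTEC slide 2, 12 on RPTEC slide 1 and 13 on HK2 slide 2, and 8 were measured on no array, among them SLC5A1, SLC22A6 and SLC22A2. SLC5A2, which encodes the target of Empa, was measured on all 12 arrays, with control levels between -2.91 and -1.99. Some markers of the thick ascending limb moved with PAX2 and POU3F3. The summed level of the 4 tested genes of the list for the thick ascending limb and distal convoluted tubule was 4.80 on HK2 slide 1 and 5.40 on RPTEC slide 2, against -2.99 on RPTEC slide 1 and -2.61 on HK2 slide 2. A summed level is the log2 of added signals, so it follows the brightest probes and not the list as a whole. Of 8 genes on that list, 4 were measured on each of the first pair of control arrays and 3 on each of the others, and SLC12A3 and EGF were measured on none. UMOD (uromodulin) was well above background on 11 arrays and lacks a value on 1, so it is not in the sum. SLC12A1, which encodes the NKCC2 cotransporter, was at 4.34 and 4.99 on HK2 slide 1 and RPTEC slide 2 and at the floor of -8.71 on both others. CLDN16 and CLDN10, claudins of that segment, followed SLC12A1, and PVALB, at -4.49, -5.46, -4.61 and -4.21 on HK2 slide 1, RPTEC slide 2, RPTEC slide 1 and HK2 slide 2, did not. The summed level of the fibroblast and mesangial list was -0.47, -0.67, 3.32 and 3.36 in the same order of slides, through LUM and DCN. LUM and DCN, which encode matrix proteoglycans, were at 1.65 and 2.69 on RPTEC slide 1 and at 1.70 and 2.69 on HK2 slide 2, and were not well above background on the other control arrays. COL1A1, a collagen gene, lay the other way at -2.84, -3.07, -4.41 and -4.61, and DES and THY1 followed neither order. CDH1 (E-cadherin) was at 2.81 and 2.98 on HK2 slide 1 and RPTEC slide 2 and not well above background on RPTEC slide 1 and HK2 slide 2, while the keratin genes KRT8 and KRT18 were measured on all 12 arrays. The summed proximal tubule list was at 6.14 on both HK2 slide 1 and RPTEC slide 2, and at 4.11 and 4.36 on RPTEC slide 1 and HK2 slide 2. Its brightest tested probe on HK2 slide 1 and RPTEC slide 2 was that of SLC3A1. SLC3A1, an amino acid transporter gene, was at 5.44, 5.45, -2.21 and -2.41 in that order, while MIOX, which encodes myo-inositol oxygenase, lay the other way at 0.22, 0.00, 3.24 and 3.31, as did LRP2 at -1.33, -1.41, -0.46 and 0.67. The part of these markers in the levels of PAX2 and POU3F3 was not tested.

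**Figure D2:**
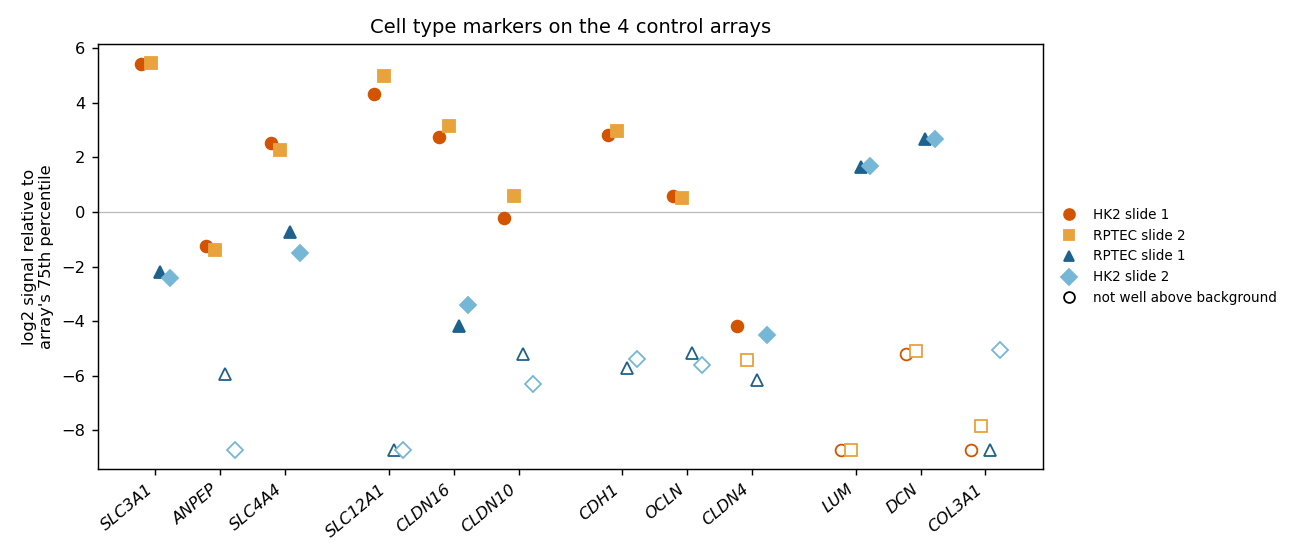
Control levels (y axis, log2 signal relative to the 75th percentile of the array) of the 3 genes of each marker list with the widest range between the control arrays (x axis; from left to right proximal tubule, thick ascending limb and distal convoluted tubule, general epithelium, fibroblast and mesangial cell). Points are single arrays and open points were not well above background. SLC12A1 lies at 4.34 and 4.99 on HK2 slide 1 and RPTEC slide 2 and at -8.71 on the others, and LUM lies the opposite way.

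The collecting duct list had 4, 4, 3 and 3 of 12 genes measured on HK2 slide 1, RPTEC slide 2, RPTEC slide 1 and HK2 slide 2, and AQP2, its defining water channel, on no array. The podocyte list had 5 of 8 genes on each control array, and the nephrin gene NPHS1 on none of them. The endothelial list had 1 of 7 genes on each control array, and the leukocyte list had 4, 2, 5 and 5 of 7. The general epithelial list had 7, 8, 6 and 6 of 8.

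No member differed between the labelled lines by limma. Of 17843 genes tested between the RPTEC and HK2 controls, 0 passed an adjusted p of 0.05 (0%), and 205 passed an unadjusted p of 0.05. The 5 members tested were PAX2, POU3F3, HNF4G, PAX8 and LHX1, and 0 of them passed. HNF4A, WT1 and GATA3 did not enter the test for lack of signal, and PAX2 and POU3F3 entered it through HK2 slide 1 and RPTEC slide 2. This comparison averages slides that lie far apart for PAX2, with a log2 difference of 0.01 ± 6.95 (SE).

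The response to IL-1β was then asked of each member. LHX1 had the largest difference among members measured on both arrays of a slide. On HK2 slide 1 it was at 1.59 in control and at -1.83 with IL-1β, 10.7-fold lower. On RPTEC slide 2 it was at 1.73 in control and at -1.29 with IL-1β, 8.13-fold lower. LHX1 had been at nearly the same level on all 4 control arrays, and the IL-1β arrays of these slides are the lowest of the 12. On RPTEC slide 1 it was at 1.40 in control and 1.11 with IL-1β, and on HK2 slide 2 at 1.38 and 1.30, differences of -0.29 and -0.08. The median over all measured genes was -0.05 on RPTEC slide 1 and -0.18 on HK2 slide 2. LHX1 thus lay below the median on RPTEC slide 1 and above it on HK2 slide 2.

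Ranked by their IL-1β difference, LHX1 stood 45th from the lowest of 14688 genes measured on both arrays of HK2 slide 1 and 71st of 13673 on RPTEC slide 2. On RPTEC slide 1 it stood at 3764 of 15172, and on HK2 slide 2 at 8432 of 15085. In the table of normalized values that the authors deposited, the difference on HK2 slide 1 was smaller, at -1.84, and that on RPTEC slide 2 was -2.59. LHX1 was lower with IL-1β on all 4 slides, as were 25.3% of the 12606 genes measured on all 12 arrays.

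PAX8 went the other way. With IL-1β it was at 3.98 against 2.76 in control on HK2 slide 1, 2.32-fold higher, and at 3.78 against 2.72 on RPTEC slide 2, 2.09-fold higher. On RPTEC slide 1 it was at 1.59 against 1.72 and on HK2 slide 2 at 1.12 against 1.46, differences of -0.13 and -0.34. Its rank from the highest was 735 of 14688 on HK2 slide 1 and 966 of 13673 on RPTEC slide 2. The differences on these slides, 1.22 and 1.06, were 1.08 and 0.87 under quantile normalization and 0.99 and 0.87 in the authors' table. PAX8 was thus higher on the slides on which LHX1 was lower, and neither moved by 2-fold on the other slides.

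The PAX2 level with IL-1β was 2.81 against 3.29 on HK2 slide 1 and 2.67 against 3.31 on RPTEC slide 2, differences of -0.48 and -0.64. POU3F3 was at -4.17 against -3.96 and at -3.70 against -3.44, differences of -0.21 and -0.26, which were 0.03 and -0.23 under quantile normalization. On the other slides neither gene was measured, and no difference is given. HNF4G was not well above background on both the IL-1β and the control array of any slide, so its differences, between -0.72 and -0.09, compare signals at the limit of detection.

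A change of at least 2-fold in either direction with IL-1β was shown by 2 of 4 measured members on HK2 slide 1, where 18.7% of all measured genes did, and by 2 of 4 on RPTEC slide 2, where 18.4% did. The members were LHX1 and PAX8 on both slides. Under quantile normalization PAX8 passed 2-fold on HK2 slide 1 alone, and in the authors' table on neither of these slides. On RPTEC slide 1 the count was 0 of 2 members against 5.94% of genes, and on HK2 slide 2 it was 0 of 2 against 12.4%. Each slide holds a single array per treatment, so these counts have no test and the difference between the slides was not tested.

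**Figure D3:**
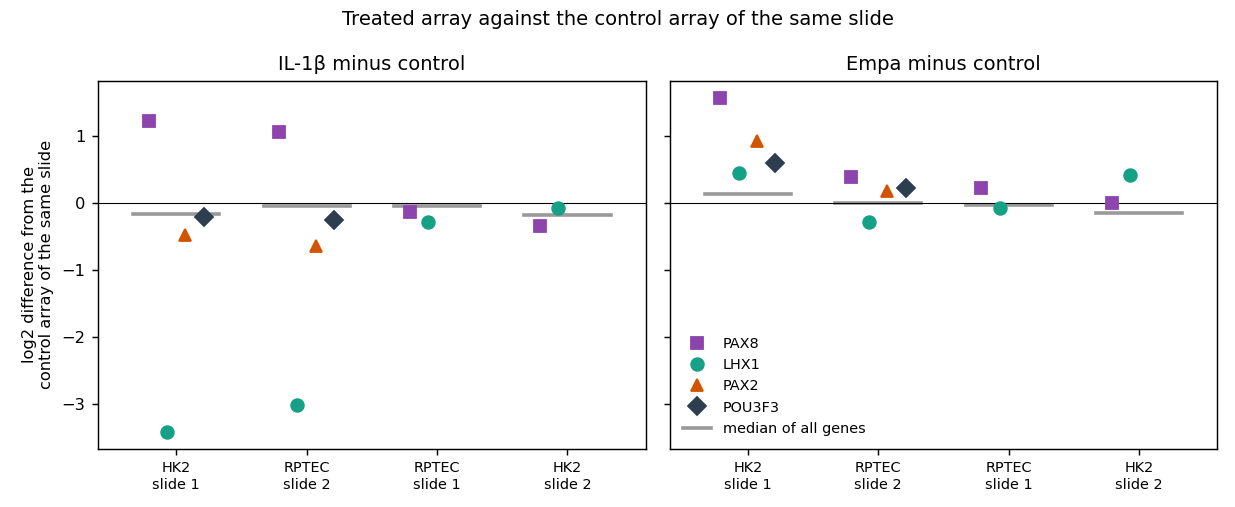
Log2 difference (y axis) of the IL-1β array (left) and the Empa array (right) from the control array of the same slide (x axis), for members well above background on both arrays. Each point is a pair of arrays and the grey bars are the medians over all genes measured on both. With IL-1β, LHX1 lies at -3.42 and -3.02 on HK2 slide 1 and RPTEC slide 2 and PAX8 at 1.22 and 1.06, while both lie between -0.34 and -0.08 on the other slides.

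Across all arrays, no member passed the test for IL-1β. In the limma fit with 6 groups and no block, 4 of 17843 genes were called (0.0224%), 1224 passed an unadjusted p of 0.05, and 0 of 5 members were called. The log2 fold change of LHX1 was -1.70 ± 0.74 (SE), with an adjusted p of 0.728 by limma. That of PAX8 was 0.45 ± 0.92 (SE, adjusted p = 1 by limma), and that of HNF4G was -0.42 ± 0.24 (SE, adjusted p = 0.892 by limma). With the slide as a block (a paired analysis), 570 genes were called (3.19%; 195 higher and 375 lower) and again 0 of 5 members. The adjusted p of LHX1 was then 0.222, that of HNF4G 0.235 and that of PAX8 0.478 by limma. In a fit with 1 effect of IL-1β over the 4 slides, which does not use the line labels, 1775 genes were called (9.95%) and 0 of 5 members, with an adjusted p of 0.122 for LHX1 by limma. These fits ask for an average over slides on which LHX1 differed by unequal amounts and PAX8 in opposite directions.

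The promoter of PAX8 is shown because PAX8 was the measured member with higher values under IL-1β on HK2 slide 1 and RPTEC slide 2. It was slightly lower on the other slides and was called in no fit. The 250 bases before the start of the gene (RefSeq, GRCh38.p14, chr2:113278922-113279171, minus strand) are given 5′ to 3′, with matches to CCAAT in capitals.
PAX8 promoter: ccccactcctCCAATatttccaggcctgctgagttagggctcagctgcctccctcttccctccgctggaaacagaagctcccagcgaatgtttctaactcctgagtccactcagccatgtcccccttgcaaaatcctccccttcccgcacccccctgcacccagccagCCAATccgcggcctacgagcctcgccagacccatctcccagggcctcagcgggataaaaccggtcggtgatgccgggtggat
CCAAT was found 2 times in a search of both strands and is held by 32% of the 35116 promoter windows of this length. No match was found on either strand for the TATA box letters TATAAA, held by 10.7% of windows. The AP-1 letters TGANTCA, held by 6.57% of windows, and the NF-κB consensus, held by 9.96%, also had no match. No match therefore overlaps another motif, and each is a description of the letters in this window. The promoter table holds a window for 6 of the 8 members and none for LHX1 and HNF4G.

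The response to Empa was described in the same way. PAX8 was at 4.34 with Empa against 2.76 in control on HK2 slide 1, 2.97-fold higher, which ranked 63 from the highest of 14546 genes measured on both arrays. On the other slides the difference was 0.38 on RPTEC slide 2, 0.23 on RPTEC slide 1 and 0.00 on HK2 slide 2. The value of HK2 slide 1 thus stands apart, and the replicate slide of the same label did not share it.

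LHX1 differed with Empa by 0.44 on HK2 slide 1, -0.28 on RPTEC slide 2, -0.08 on RPTEC slide 1 and 0.41 on HK2 slide 2, with no common direction. PAX2 was at 4.21 against 3.29 on HK2 slide 1 and at 3.49 against 3.31 on RPTEC slide 2, differences of 0.92 and 0.18. POU3F3 differed by 0.59 and 0.23 on these slides, and by 0.04 and 0.07 in the authors' table.

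A change of at least 2-fold with Empa was shown by 1 of 4 measured members on HK2 slide 1, against 15.2% of all measured genes. It was shown by 0 of 4 on RPTEC slide 2 (2.41% of genes), 0 of 2 on RPTEC slide 1 (3.49%) and 0 of 2 on HK2 slide 2 (5.1%). The Empa array of HK2 slide 1 thus held more genes past 2-fold than the other Empa arrays.

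By limma, 0 of 17843 genes were called for Empa without a block (0%; 215 at an unadjusted p of 0.05) and 0 with the slide as a block (0%; 1445 unadjusted), and 1 in the fit with 1 effect over the 4 slides (0.0056%). None of the 5 members tested was called in these fits. The log2 fold change of PAX2 was 1.46 ± 4.91 (SE, adjusted p = 1 by limma), and that of PAX8 0.55 ± 0.92 (SE, adjusted p = 1 by limma). With a floor of 5 signal units the PAX2 value was 0.39, and in the authors' table it was 0.31. With the block, the adjusted p of PAX2 was 0.609 by limma. The value of 1.46 rests on the slides on which PAX2 was below detection, where the signals of the Empa arrays lay above the floor of the controls by 1.98 and 2.78.

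Cofactors and neighbouring genes of the pathway were followed under IL-1β from lists, and in the fit without a block none of their genes was called. The counts that follow are from the fit with the slide as a block, in which 3.19% of all genes were called, beside a median log2 fold change of -0.11 over all genes.

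Of 13 cofactors tested, 2 fell and 0 rose, with a median log2 fold change of -0.51. PPARGC1A, which encodes PGC-1α, the coactivator of HNF4A in metabolic genes, fell by 1.56 on the log2 scale (SE 0.21, adjusted p = 0.0227 by limma). Its differences were -1.33 on HK2 slide 1, -1.23 on RPTEC slide 2, -1.66 on RPTEC slide 1 and -2.03 on HK2 slide 2. CITED2, a CBP/p300-binding coregulator, fell by 1.45 (SE 0.24, adjusted p = 0.0342 by limma). In the fit with 1 effect over the 4 slides, in which 9.95% of all genes were called, 3 cofactors fell and 2 rose. The risers were WTAP and BASP1, whose products bind WT1, with log2 fold changes of 2.02 ± 0.45 (SE, adjusted p = 0.0284 by limma) and 1.56 ± 0.32 (SE, adjusted p = 0.0203 by limma). WTAP differed by 3.19, 3.09, 0.69 and 1.10 on HK2 slide 1, RPTEC slide 2, RPTEC slide 1 and HK2 slide 2. BASP1 differed by 2.34, 2.24, 0.93 and 0.73 in the same order. PPARGC1A and CITED2 were lower by more than 2-fold on all 4 slides, while LHX1 was lower by more than 2-fold on HK2 slide 1 and RPTEC slide 2 and by less on the others.

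Of 30 other kidney transcription factors tested, 2 fell and 0 rose, with a median of -0.48. TFCP2L1, a factor of the distal nephron and collecting duct, fell by 2.32 (SE 0.34, adjusted p = 0.0268 by limma), but on RPTEC slide 1 and HK2 slide 2 its controls were not well above background. SOX4, a factor of nephron progenitors, fell by 1.14 (SE 0.19, adjusted p = 0.0346 by limma), with differences between -1.41 and -0.87.

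Of 13 nephric duct and nephron induction genes tested, 1 rose and 2 fell, with a median of -0.04. GDNF, the ligand of the RET receptor that draws out the ureteric bud, rose by 2.70 (SE 0.35, adjusted p = 0.0199 by limma), and it was below detection in the controls of HK2 slide 1 and RPTEC slide 2. The cadherin genes CDH6 and CDH16, markers of the nascent nephron and of mature tubules, fell by 1.88 (SE 0.17, adjusted p = 0.0127 by limma) and by 1.58 (SE 0.28, adjusted p = 0.0386 by limma). CDH6 was not well above background on the IL-1β arrays of HK2 slide 1 and RPTEC slide 2, at -5.14 and -5.05. CDH16, a gene that PAX8 is known to activate, was lower with IL-1β on all 4 slides, with differences of -0.93, -1.20, -2.13 and -2.05 on HK2 slide 1, RPTEC slide 2, RPTEC slide 1 and HK2 slide 2, while PAX8 was higher on the first pair. Of 12 HNF4A target genes tested, 0 were called, with a median of -0.44.

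**Figure D4:**
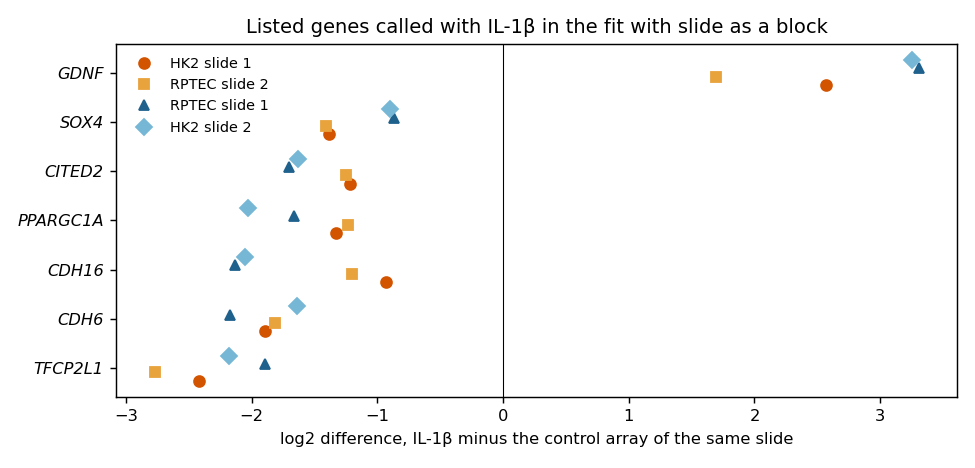
Log2 difference of the IL-1β array from the control array of the same slide (x axis) for the 7 genes of the transcription factor, cofactor and induction lists called with IL-1β in the fit with the slide as a block (y axis). Each point is a slide. GDNF lies between 1.69 and 3.31 and the other genes lie below 0 on all 4 slides. The control was not well above background for GDNF on HK2 slide 1 and RPTEC slide 2. The same holds for TFCP2L1 on RPTEC slide 1 and HK2 slide 2. For CDH6 the IL-1β array was not well above background on HK2 slide 1 and RPTEC slide 2. All of these points include signals at the limit of detection.

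Among the marker lists in the same fit, 2 of 14 proximal tubule markers fell and 0 rose, with a median of -0.56. LRP2, which encodes the endocytic receptor megalin, fell by 2.44 (SE 0.19, adjusted p = 0.00908 by limma), with differences of -2.37, -2.04, -2.64 and -2.70 on HK2 slide 1, RPTEC slide 2, RPTEC slide 1 and HK2 slide 2. SLC34A1, the phosphate cotransporter gene, fell by 1.26 (SE 0.21, adjusted p = 0.0356 by limma) and was above background on 4 of 12 arrays. SCNN1A of the collecting duct list, which encodes a sodium channel subunit, fell by 2.80 (adjusted p = 0.0177 by limma). NPNT of the podocyte list fell by 1.06 (adjusted p = 0.0434 by limma). CDH1 of the epithelial list fell by 3.39 (adjusted p = 0.0177 by limma) and was measured on 6 of 12 arrays. In the fibroblast, endothelial, leukocyte and thick ascending limb lists 0 genes were called. In the fit with 1 effect over the 4 slides, the proximal tubule list had 4 genes that fell, the epithelial list 3, the collecting duct list 2 and the fibroblast list 1 (THY1), and 0 marker genes rose. The other kidney transcription factors had 5 that fell and 0 that rose, and the induction list 2 in each direction. THY1 was well above background on 2 of 12 arrays and on no control array. With Empa, 0 genes of any list were called in any of these fits.

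Genes with levels most like those of LHX1 over the 12 arrays were TXNIP (r = 0.971), SCAI (r = 0.970) and GRB14 (r = 0.969), out of 12606 genes measured on all arrays. TXNIP encodes an arrestin that limits glucose uptake, and GRB14 an adaptor that inhibits the insulin receptor. TXNIP differed with IL-1β by -5.15, -4.21, -1.30 and -1.27 on HK2 slide 1, RPTEC slide 2, RPTEC slide 1 and HK2 slide 2. GRB14 differed by -2.71, -2.70, -0.35 and -0.35 on these slides. Most like PAX8 were MIEN1 (r = 0.980), LOC100129846 (r = 0.971) and USP35 (r = 0.968). The 12 points share 4 slides and 3 treatments, so these values describe the arrays and carry no test.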

How the data were processed

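RNA of 12 cultures was measured on one-color Agilent arrays, 2 per labelled line and treatment. The authors deposited spot intensity files of Feature Extraction 9.5.3.1, whose processed signals are background-subtracted and detrended, and a table of normalized log2 values. Control and outlier spots were left out, and the spots of a probe were averaged. Each array was scaled to its 75th percentile (between 297.7 and 765.4 signal units), raised to a floor of 1 signal unit and put on the log2 scale. The brightest probe per gene was kept among probes well above background on at least 2 of 12 arrays, which left 17843 genes. This filter was chosen after the members' values were seen, because a filter by labelled group rests on the doubted labels. limma 3.58.1 (R 4.3.3) was fitted to 6 groups with Benjamini-Hochberg adjustment and a threshold of 0.05, and tested on simulated data. Arrays of the same slide deviated together from their group means (r from 0.592 to 0.906), and the replicate numbers were taken to pair them. With 2 arrays per group these deviations mirror each other. The size of r therefore reflects how unlike the slides of a label were and is no separate support for the pairing. The members and lists were chosen with earlier results of these data known. The genes planned to be named were all members, up to 5 called genes per list, the 3 markers per list with the widest control range and the 3 genes most like PAX8 and LHX1. Genes said to be named after their values were seen are exceptions. Further markers in the text, among them MIOX, COL1A1, PVALB, KRT8 and SLC5A2, also lie outside this rule. Not every marker that the rule picks is named. Alternatives were the slide or scan day as a block, other normalizations, the authors' table, floors, filters and probes, arrays left out and the methods' t-test. The array annotation gives hg19 positions and the number of arrays limits the precision.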

Additional observations from a re-analysis of the deposited data

How the results depend on the processing

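The count of members called was 0 in the IL-1β and Empa comparisons under all 28 alternatives each, the replicate block and the paired fit over the 4 slides included. It was also 0 in the comparison of the labelled lines under all 23 alternatives, for which no block of slides can be fitted. For Empa and for the labelled lines, no setting called more than 5 genes in all. With IL-1β, the t-tests, the single scan days and most fits with an array left out called 0 genes in all. In such settings a member count of 0 was nearly fixed in advance and shows little about the members. The total of genes called for IL-1β did depend on the setting, from 0 with the scan day as a block, and 4 without a block, to 570 with the replicate block, 1775 with 1 effect over the 4 slides and 23 without a filter on dim probes. For Empa and for the labelled lines, 5 genes each were called without that filter. Leaving out each array in turn gave log2 fold changes with IL-1β from -2.49 to -0.92 for LHX1, -0.26 to 1.17 for PAX8, -3.29 to 2.72 for PAX2, -1.60 to 0.90 for POU3F3 and -0.47 to -0.37 for HNF4G. With Empa they ran from 0.04 to 0.20 for LHX1, -0.17 to 1.27 for PAX8, -1.54 to 4.47 for PAX2, -0.97 to 1.41 for POU3F3 and -0.06 to 0.26 for HNF4G. POU3F3 changed sign to 0.44 with IL-1β on scan day 2 alone and to -0.25 with Empa on scan day 1 alone, and HNF4G to -0.01 with Empa in the authors' table. PAX2 with Empa was 0.39 with a floor of 5 signal units and 0.31 in the authors' table and with normexp, against 1.46. With that floor, its difference was 0.00 on RPTEC slide 1 and 0.46 on HK2 slide 2, in place of 1.98 and 2.78. PAX2 was below detection on these slides. The cause of the sign changes was not tested. The single scan days and the filter on both arrays of a labelled group were chosen after seeing the data. The authors' table moved the median of all genes between the labelled lines to -0.73, and it gave control ranges of 6.31 for PAX2 and 2.34 for POU3F3 in place of 12.02 and 5.27, and of 2.00 for HNF4G in place of 0.38. The median level of that table was 8.29 on the control array of HK2 slide 1. It was 6.54 on both RPTEC control arrays and 6.89 on that of HK2 slide 2. Its levels are therefore not comparable between slides, and its control ranges include this offset. Dim signals limit PAX2 and POU3F3 on RPTEC slide 1 and HK2 slide 2, and HNF4A, WT1, GATA3 and HNF4G throughout.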
